A study of Mus musculus with 31 samples.

Results

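Retinoic acid pathway genes were followed in mouse eyes that lacked the long non-coding RNA *Ftx*. The set held 9 genes: *Aldh1a1*, *Aldh1a2* and *Aldh1a3*, which make retinoic acid, *Cyp26a1*, *Cyp26b1* and *Cyp26c1*, which degrade it, and *Crabp1*, *Crabp2* and *Rbp4*, which bind retinoids. Members were the non-control probes that carry these gene names on the array, 9 of 55681 different probes, with 1 probe per gene. Eyes were taken at embryonic day 13.5, after the pigmented epithelial layer had been cut away, and RNA of each eye was hybridised to an Agilent whole-genome array in 1 colour. The groups were 3 WT female, 3 WT male, 3 Ftx KO male (*Ftx*-/Y) and 11 Ftx KO female (*Ftx*-/-) eyes, and each Ftx KO female eye was measured on 2 arrays. Only eyes that looked normal were put on the arrays, according to the paper. All mice had a C57BL/6N background, and the mutants carried the targeted *Ftx* allele in every cell. This allele also removes the expression of microRNAs encoded within an *Ftx* intron, so loss of *Ftx* and loss of those microRNAs cannot be told apart here. The paper reports no overt eye abnormality in mice that lack only these microRNAs, but none of their eyes are on these arrays. The WT female eyes were numbered 1, 2 and 4. No source used here says whether eyes came from different litters, or whether both eyes of an embryo were taken, so the p-values measure the spread between these eyes.

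Retinoic acid is made from vitamin A inside cells and acts as a signal between neighbouring tissues. Retinol travels in blood on RBP4 and enters cells through STRA6. RDH10 and related enzymes oxidise it to retinal, DHRS3 reduces retinal back to retinol, and the ALDH1A enzymes oxidise retinal irreversibly to retinoic acid. CRABP1 and CRABP2 carry retinoic acid in the cytoplasm, and CRABP2 hands it to the nuclear receptors. The receptors, RAR and RXR proteins, bind DNA as heterodimers at repeated hexamers and turn on genes such as *Cyp26a1* and *Rarb*. CYP26 enzymes remove retinoic acid and so limit where it acts. In the embryonic eye *Aldh1a1* is known from dorsal retina, *Aldh1a3* from ventral retina and pigment epithelium, and *Aldh1a2* from mesenchyme around the optic vesicle. Retinoic acid from the retina acts on the mesenchyme around the eye, where it maintains *Foxc1* and *Dkk2*.

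The arrays and the tissue were examined first. Between 47.0% and 69.8% of probes were well above background per array, and the median signal per array ran from 34.2 to 75 before normalization. As a check of the labels, the signal of an *Ftx* probe cleared background on every WT array (3 female, 3 male), on 0 of 3 arrays of Ftx KO males and on 9 of the 22 arrays of Ftx KO females. A further *Ftx* probe did so on 2 of 3 arrays of WT females, on none of WT males or Ftx KO males, and on 1 of 22 of Ftx KO females, so it checks little. Lens crystallins and retinal progenitor genes such as *Pax6* and *Rax* were well above background on all 3 WT female arrays. The melanocyte enzyme genes *Tyr*, *Tyrp1* and *Dct* were also well above background there, while the mature pigment epithelium genes *Rpe65* and *Best1* were not on any of the 3. All 6 WT eyes and Ftx KO male 1 shared slide 1, which was scanned on another day than the other 3 slides. Slide 2 held Ftx KO males 2 and 3 with Ftx KO females 1 to 3, and slides 3 and 4 held the other Ftx KO females. No slide held WT and Ftx KO females together, so slide, scan and genotype cannot be told apart in females from within a slide.

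Levels below are normalized signals, given on the log2 scale unless signal is named, and a log2 difference of 1 means a doubling. Every value came from the RNA of a whole eye, so fewer cells of a type and less RNA per cell cannot be told apart. Differences were tested with limma in 1 fit over all 20 eyes, and a probe was called at an adjusted p under 0.05. Tested were the 14052 probes whose WT female mean signal exceeded 500, a minimum that 6 of 9 members passed. The member just inside it was *Rbp4*, with a mean signal of 531 in WT females, and just outside lay *Cyp26b1* at 387. *Aldh1a2* had a mean signal of 175 and *Cyp26c1* one of 18.8. These 3 genes take their values from the same fit over all probes, and a fold change between groups is comparable between genes, whereas the level of a probe is not. The plot of the members by eye shows the levels behind the comparisons.

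**Figure D1:**
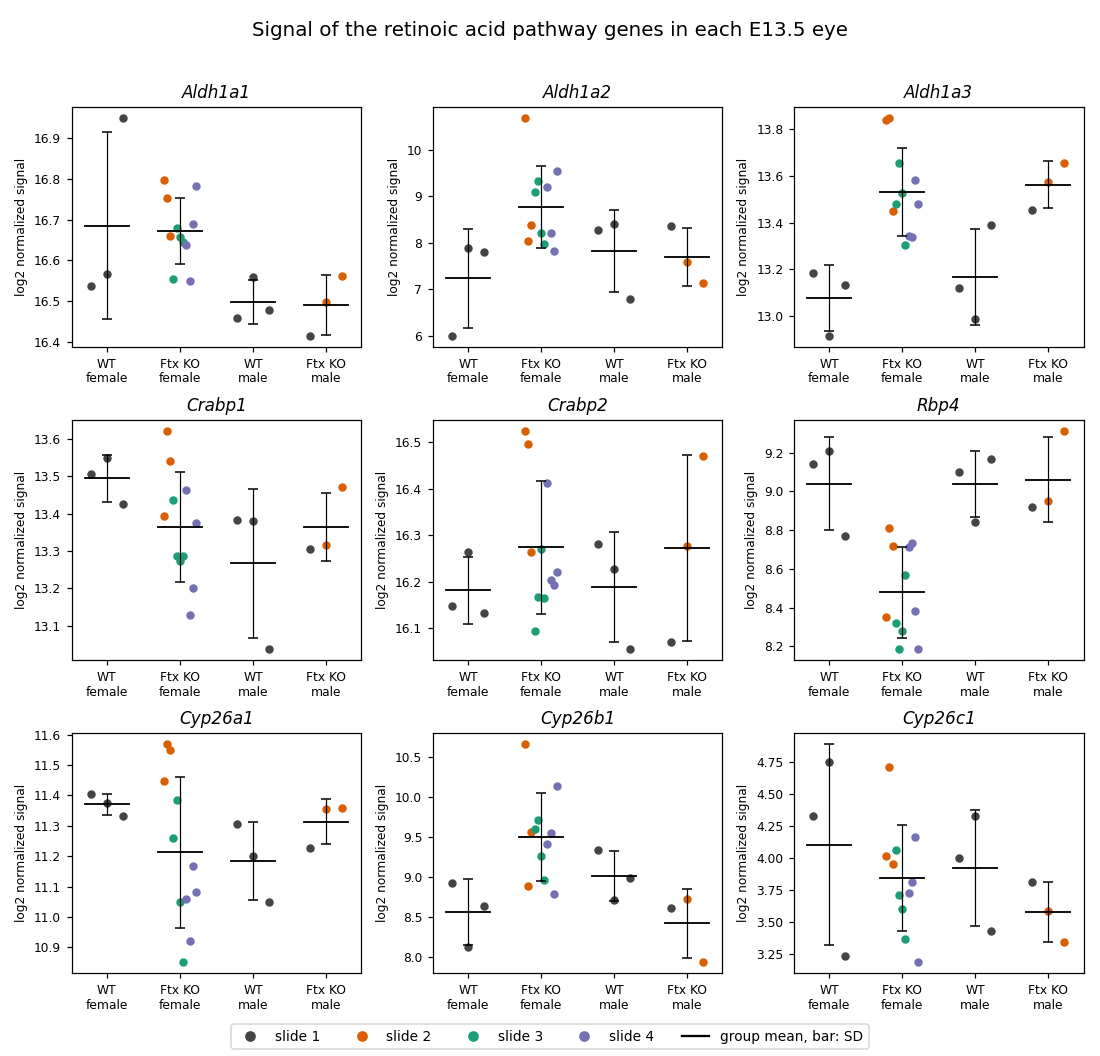
Normalized log2 signal of the 9 member probes in each eye, with 1 point per eye, grouped as WT female (n = 3), WT male (n = 3), Ftx KO male (n = 3) and Ftx KO female (n = 11, each point the mean of 2 arrays). *Aldh1a3* lay higher in all Ftx KO eyes of a sex than in its WT eyes, *Rbp4* lay lower in most Ftx KO females with a small overlap, and the other members overlapped between Ftx KO and WT eyes of the same sex.

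Between Ftx KO and WT females, 2 of the 6 members above the minimum were called, 1 higher and 1 lower. This share has to be read against a background of 35.0% of all tested probes called in that comparison, 16.8% higher and 18.2% lower. The called members were *Aldh1a3*, which rose 1.37-fold, and *Rbp4*, which fell to 0.677 of its WT level. The minimum on WT females shaped this count, since *Rbp4* passed it through its higher group, with a mean signal of 361 in Ftx KO females, while *Cyp26b1* and *Aldh1a2*, at 778 and 530 in Ftx KO females, were kept out by their WT levels. With the minimum set on the mean over all 20 eyes instead, 2 of 6 members were called, *Aldh1a3* and *Cyp26b1*, and *Rbp4* was not tested. *Cyp26b1* passed that minimum through the Ftx KO females, its mean signal being 525 in WT and 352 in Ftx KO males. The background of 35.0% belongs to the minimum on WT females and not to this count. The median log2 difference over the 6 members was -0.07, beside -0.01 over all tested probes. In males 0 of 6 members were called (background 0.0213%), and 1, *Aldh1a3*, had an unadjusted p under 0.05, as did 1656 of all 14052 tested probes. WT females and WT males differed at 0 of 6 members after adjustment (background 0.0712%) and at 0 of 6 at an unadjusted p under 0.05. The Ftx KO change differed between the sexes at 0 of 6 members (background 0%), with 1, *Rbp4*, at an unadjusted p under 0.05. In the fit over all probes, 3 of 9 members were called in females, *Cyp26b1* being added as higher, against a background of 15.8%.

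Of the synthesis enzymes, *Aldh1a3* was the member that rose in the main test. ALDH1A3 oxidises retinal to retinoic acid, and its probe, A_52_P87843, lies at chr7:73535785-73535844 of mm9 on the minus strand. Its log2 levels were 13.18, 12.92 and 13.13 in WT females 1, 2 and 4, and 13.30 at the lowest, 13.48 at the median and 13.85 at the highest of 11 Ftx KO females. In signal, WT females had 9313, 7726 and 8984 and Ftx KO females 10120 to 14750. All 11 Ftx KO female eyes were above all 3 WT female eyes, and *Aldh1a3* was the 1 member of 6 without overlap, where 21.5% of all tested probes had none. The log2 difference was 0.45 with an SE of 0.11 (limma, adjusted p = 0.00404). Male levels were 13.12, 12.99 and 13.39 in WT and 13.46, 13.57 and 13.66 in Ftx KO eyes. The 3 Ftx KO males were also all above the 3 WT males, as 1 member of 6 without overlap in males, where 20.6% of all tested probes had none. In males the log2 difference was 0.39 with an SE of 0.14 and a fold of 1.31, which had an unadjusted p of 0.01 and an adjusted p of 0.305 in limma. By the criteria of the study, a fold above 1.2 or below 0.8 with an unadjusted p under 0.05, 1 of 6 members passed in males, beside 5.69% of tested probes. The change in females minus that in males was 0.06 with an SE of 0.18 (adjusted p = 0.905).

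The slides split the *Aldh1a3* values as follows. Ftx KO females exceeded the WT female mean by 0.63 on slide 2, 0.41 on slide 3 and 0.36 on slide 4. On slide 1, which held both genotypes of males, Ftx KO male 1 was 0.29 above the WT male mean, and the other 2 Ftx KO males on slide 2 were 0.45 above it. All differences of a sex are taken from the same WT mean, so their signs are not independent of each other. A block by slide or scan ties WT to Ftx KO females only through Ftx KO males, with 1 of them on slide 1. For every member the slide block thus rests on the Ftx KO females of slide 2 alone. Its values are not effects over all eyes. With the slide as a block the female difference was 0.48 with an SE of 0.22 (adjusted p = 0.29), and with the scan as a block it was 0.30 (adjusted p = 0.571), so the call was lost in both.

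**Figure D2:**
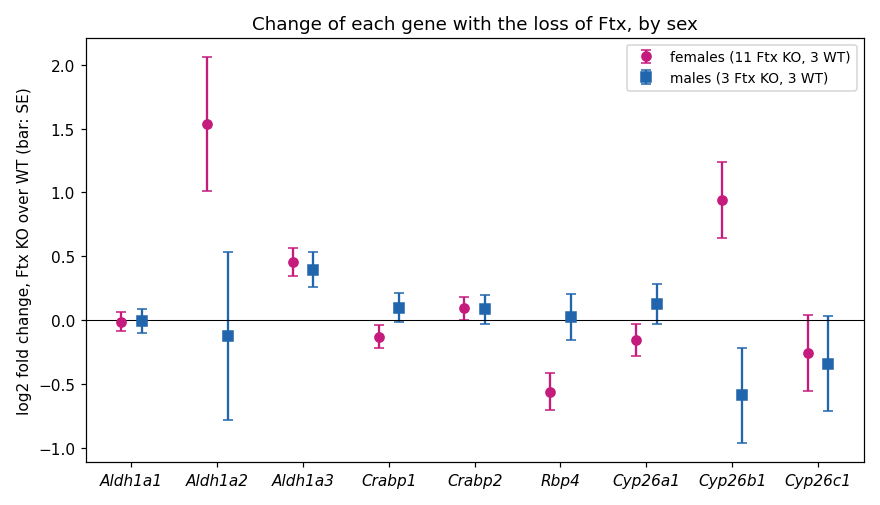
Log2 difference between Ftx KO and WT eyes for each member in females (11 against 3 eyes) and in males (3 against 3), with bars of 1 SE from limma; members under the minimum take the fit over all probes, and *Cyp26c1* rests on signals near background. *Aldh1a3* was above 0 by more than its SE in both sexes, and *Rbp4* was below 0 in females and near 0 in males.

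*Aldh1a1*, the dorsal retinal enzyme, showed no change that passed the test. Its probe, A_51_P334942, lies at chr19:20717764-20717823 of mm9 on the plus strand. WT female levels were 16.54, 16.57 and 16.95, and Ftx KO females ran from 16.55 through a median of 16.66 to 16.80. The Ftx KO eyes lay within the range of the WT eyes, and the log2 difference was -0.01 with an SE of 0.07 (limma, adjusted p = 0.912). WT males had 16.46, 16.56 and 16.48, and Ftx KO males 16.42, 16.50 and 16.56. These groups overlapped too, with a difference of -0.01 and an SE of 0.09. WT female 4 was the highest eye of all 20. The WT female mean was 0.19 above the WT male mean, with an SE of 0.09 (unadjusted p = 0.0514, adjusted p = 0.496 in limma).

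*Aldh1a2*, the enzyme best known from embryonic mesoderm and mesenchyme, had higher values in Ftx KO females that missed the threshold. Its probe, A_52_P58145, lies at chr9:71143931-71143990 of mm9 on the plus strand, and it was well above background on all arrays despite its low signal. Levels were 6.003, 7.89 and 7.81 in WT females, and 7.82, 8.39 and 10.68 at the lowest, median and highest of the Ftx KO females. All 11 Ftx KO female eyes were above the WT female mean, yet the lowest of them was under WT female 2, so the groups overlapped. The difference was 1.54 with an SE of 0.52 (limma over all probes, adjusted p = 0.0519). WT female 1 carried much of it, since without that eye the difference was 0.92 (adjusted p = 0.423). Without WT female 4 the adjusted p was 0.0468, and without WT male 3, which enters the shared estimate of the spread, it was 0.043. The highest Ftx KO value belonged to eye 1, and without that eye the difference was 1.35.

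In males *Aldh1a2* levels were 8.28, 8.40 and 6.80 in WT and 8.37, 7.60 and 7.13 in Ftx KO eyes. The ranges overlapped, with a difference of -0.13 and an SE of 0.66. Ftx KO females were above the WT female mean by 1.80, 1.42 and 1.46 on slides 2, 3 and 4, whereas Ftx KO males were at 0.54 on slide 1 and -0.46 on slide 2. With the slide as a block, which here too uses the Ftx KO females of slide 2 alone, the female difference was 2.80 (adjusted p = 0.456). The change in females minus that in males was 1.66 with an SE of 0.84 (limma over all probes, unadjusted p = 0.0618, adjusted p = 0.524). In the mesenchyme marker sum, the summed signal of 10 genes such as *Col1a2*, the brightest of them, *Lum* and *Dcn*, Ftx KO female eye 1 was also the highest eye.

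Among the retinoid-binding proteins, *Rbp4* fell in Ftx KO females, in the test above the minimum and in the fit over all probes. RBP4 is the carrier that brings retinol to tissues through the blood. The probe, A_55_P2006118, lies at chr19:38191120-38191179 of mm9 on the minus strand. WT females had 9.14, 9.21 and 8.77, and Ftx KO females 8.19 at the lowest, 8.38 at the median and 8.81 at the highest. All 11 Ftx KO eyes were below the WT female mean, and the groups overlapped by a small margin, WT female 4 lying under Ftx KO female 2. The log2 difference was -0.56 with an SE of 0.14 in the fit over all probes, which does not depend on the minimum (limma, adjusted p = 0.012), and above the minimum its adjusted p was 0.00633. Leaving out WT female 2 moved it to -0.48 and the adjusted p to 0.0515, which ended the call.

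The male values of *Rbp4* lay close together. WT males had 9.10, 8.84 and 9.17, and Ftx KO males 8.92, 8.95 and 9.31. Ftx KO males spanned much the same range as WT males, with a difference of 0.02 and an SE of 0.18 (limma, adjusted p = 0.973). The change in females minus that in males was -0.59 with an SE of 0.23, which had an unadjusted p of 0.0214 and did not pass after adjustment (adjusted p = 0.283). The female eyes of slides 2, 3 and 4 lay below the WT female mean by log2 differences of -0.41, -0.70 and -0.54. On slide 2 the Ftx KO females were also below the Ftx KO males of the same slide, at a difference of -0.50. With the slide as a block the female difference was -0.62 with an SE of 0.32 (adjusted p = 0.321), and with the scan as a block -0.77 (adjusted p = 0.261).

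*Crabp1* and *Crabp2*, the cytoplasmic carriers of retinoic acid, did not pass the test in either sex. The *Crabp1* probe, A_52_P185907, lies at chr9:54616192-54616251 of mm9 on the plus strand. It read 13.51, 13.55 and 13.43 in WT females and 13.13 to 13.62, with a median of 13.37, in Ftx KO females. The Ftx KO range enclosed the WT range, and the difference was -0.13 with an SE of 0.09 (limma, adjusted p = 0.275). In males it read 13.38, 13.38 and 13.04 in WT and 13.30, 13.32 and 13.47 in Ftx KO eyes, which overlapped, with a difference of 0.10 and an SE of 0.11. WT females and WT males did not overlap at *Crabp1*, the females being 0.23 higher with an SE of 0.11 (unadjusted p = 0.0595, adjusted p = 0.512 in limma). *Cyp26a1* did not overlap between the WT sexes either, with the females 0.19 higher (adjusted p = 0.749), so 2 of 6 members had no overlap there, beside 19.1% of all tested probes.

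The *Crabp2* probe, A_55_P2059432, lies at chr3:87757207-87757266 of mm9 on the plus strand. WT females read 16.15, 16.26 and 16.13, and Ftx KO females 16.09 to 16.52 with a median of 16.22. WT males read 16.28, 16.23 and 16.05, and Ftx KO males 16.07, 16.28 and 16.47. All 4 ranges overlapped. The difference was 0.09 with an SE of 0.09 in females (limma, adjusted p = 0.445) and 0.08 with an SE of 0.11 in males.

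Of the degrading enzymes, *Cyp26a1* is well known to be switched on by retinoic acid itself. Repeats of a hexamer with 5 bases between the copies, called DR5, are the classical binding sequence of RAR and RXR, and the 250 bases before the start of each gene were searched for them in RefSeq on GRCm38.p6. The hexamers searched were AGTTCA, its consensus form AGGTCA, the form GGTTCA that *Rarb* carries, and as the last one GGGTCA, in any pair and on both strands. Windows were found for 7 of 9 members and for 33 of 46 other pathway genes listed further on. Among all 32851 windows 29 held a DR5 (0.0883%), and these included 1 member, *Cyp26a1*, and 1 other pathway gene, *Rarb*. The hexamers searched include those of both matches, GGTTCA being taken from *Rarb* itself. The share over all windows is therefore no test of these matches. Repeats with 1 base or 2 bases between the copies were in 0.164% and 0.174% of windows, in none of the members. Both windows with a DR5 are shown because these genes are used as readouts of retinoic acid, with the match in capitals. The *Cyp26a1* window is chr19:37697558-37697807 on the plus strand, the match reading on the minus strand from 32 to 16 bases before the start. The *Rarb* window is chr14:16575477-16575726 on the minus strand of the chromosome, the match lying 53 to 37 bases before the start. Each window is given 5′ to 3′ along the gene.
Cyp26a1: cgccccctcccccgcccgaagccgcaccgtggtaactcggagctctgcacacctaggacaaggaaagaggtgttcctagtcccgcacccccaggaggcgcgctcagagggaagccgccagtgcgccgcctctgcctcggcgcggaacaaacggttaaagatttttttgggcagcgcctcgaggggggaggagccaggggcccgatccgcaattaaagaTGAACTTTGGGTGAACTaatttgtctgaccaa
Rarb: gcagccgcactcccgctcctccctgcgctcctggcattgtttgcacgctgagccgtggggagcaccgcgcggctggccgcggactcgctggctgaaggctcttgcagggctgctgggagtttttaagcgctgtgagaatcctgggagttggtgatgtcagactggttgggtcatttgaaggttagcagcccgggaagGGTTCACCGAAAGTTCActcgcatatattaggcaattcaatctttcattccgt

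*Cyp26a1* itself did not pass the test. Its probe, A_52_P382149, lies at chr19:37775566-37775625 of mm9 on the plus strand. WT females had 11.40, 11.38 and 11.33, close together, and Ftx KO females ran from 10.85 through a median of 11.17 to 11.57. The Ftx KO range enclosed the WT range, 4 of 11 eyes lying above and 7 below the WT female mean, and the difference was -0.16 with an SE of 0.13 (limma, adjusted p = 0.343). The sign varied with the slide, the difference being 0.15 on slide 2, -0.24 on slide 3 and -0.31 on slide 4. With the Ftx KO female eyes of slide 4 only, *Cyp26a1* was called lower (adjusted p = 0.0105). In males the levels were 11.30, 11.20 and 11.05 in WT and 11.23, 11.36 and 11.36 in Ftx KO eyes. The male groups overlapped, with a difference of 0.13 and an SE of 0.16 (adjusted p = 0.79).

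*Cyp26b1* rose in Ftx KO females in the fit over all probes. CYP26B1 clears retinoic acid in many embryonic tissues. The probe, A_51_P501844, lies at chr6:84521952-84522011 of mm9 on the minus strand and was well above background on every array. WT females had 8.93, 8.12 and 8.63, and Ftx KO females 8.78, 9.54 and 10.66 at the lowest, median and highest. All 11 Ftx KO eyes were above the WT female mean, while the lowest lay under WT female 1, so the groups overlapped. The difference was 0.94 with an SE of 0.30, a fold of 1.92 (limma over all probes, adjusted p = 0.0369). The call was lost without any 1 of the WT females, with adjusted p of 0.0675 without eye 1, 0.229 without eye 2 and 0.0646 without eye 4. It was kept without Ftx KO female 1, the highest eye, at a difference of 0.83 (adjusted p = 0.0301). With the slide as a block the difference was 1.42 (adjusted p = 0.534).

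The male values of *Cyp26b1* lay the other way. WT males had 9.34, 8.71 and 8.98, and Ftx KO males 8.61, 8.73 and 7.93. All 3 Ftx KO males were below the WT male mean, the groups overlapped between 8.71 and 8.73, and the difference was -0.59 with an SE of 0.37 (limma over all probes, adjusted p = 0.523). The change in females minus that in males was 1.53 with an SE of 0.48, at an unadjusted p of 0.00453 and an adjusted p of 0.302. On slide 1 alone Ftx KO male 1 was at -0.41 against the WT males, and the Ftx KO males of slide 2 were at -0.68. Ftx KO females of slides 2, 3 and 4 were at 1.14, 0.83 and 0.91 against the WT females.

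**Figure D3:**
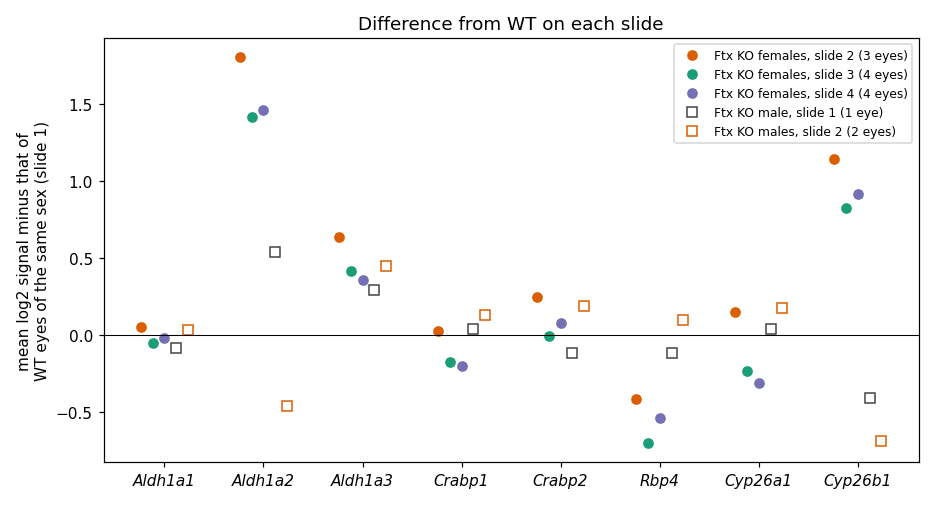
Log2 difference from the WT mean of the same sex for each member but *Cyp26c1*, split by the slide that held the Ftx KO eyes, for females on slides 2, 3 and 4 and for males on slides 1 and 2. *Aldh1a3* was above 0 on every slide in both sexes, *Rbp4* below 0 on every female slide, *Cyp26b1* above 0 on the female and below 0 on the male slides, and *Cyp26a1* changed sign between female slides.

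*Cyp26c1*, the remaining degrading enzyme, was barely measured. Its probe, A_55_P2035407, lies at chr19:37767436-37767495 of mm9 on the plus strand. In WT eyes 2 of 3 arrays of females and 0 of 3 arrays of males read it well above background, and in Ftx KO eyes 0 of 3 arrays of males and 2 of 22 arrays of females did. No difference is therefore read from it. The 2 arrays of an Ftx KO female eye differed by a median of 0.52 on the log2 scale at this probe, where the other members differed by a median of 0.03 to 0.10.

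Other genes of the pathway were counted from lists of 46 genes. Of their 30 probes above the minimum, 5 were called between Ftx KO and WT females, where 35.0% of all tested probes were, and 0 in males. With the slide or the scan as a block 0 of the 30 were called in females, so each of the 5 calls was lost in both. These blocks tie WT to Ftx KO females through Ftx KO males alone, so the loss does not separate slide from genotype. The counts by list that follow have the same background, 16.8% higher and 18.2% lower. Uptake and binding genes had 2 of 4 probes higher and none lower, with a median log2 difference of 0.11. *Fabp5*, an alternative carrier of retinoic acid, rose by 0.20 with an SE of 0.07 (limma, adjusted p = 0.0293), which became an adjusted p of 0.061 in the fit over all probes. *Stra6*, the receptor for RBP4, had a difference of -0.20 (adjusted p = 0.115).

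None of the 5 probes for oxidation and reduction of retinol and retinal was called, and their median difference was 0.08. *Rdh10*, the retinol dehydrogenase needed in embryos, differed by 0.19 (limma, adjusted p = 0.142), and *Dhrs3*, which works in the opposite direction and is induced by retinoic acid, by 0.44 with an SE of 0.29 (adjusted p = 0.255). Under the minimum, in the fit over all probes, *Rdh13* rose by 0.83 (adjusted p = 0.000149) from 7.75 to 8.16 in WT females to 8.51 to 8.88 in Ftx KO females. The other *Rdh13* probe was at 0.61 (adjusted p = 0.303) and was not well above background on any WT female array. In males the *Rdh13* difference was 0.41, at an unadjusted p of 0.00813 and an adjusted p of 0.235. *Rdh5*, a dehydrogenase of the pigment epithelium, rose by 0.49 in the same fit (adjusted p = 0.0483).

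Of 6 receptor probes above the minimum, 1 was higher and 1 lower. *Rarb*, a receptor gene that retinoic acid induces and whose DR5 is printed above, rose by 0.54 with an SE of 0.17 at probe A_55_P1962154 (limma, adjusted p = 0.0221). WT females ran from 9.53 to 10.10 there and Ftx KO females from 10.06 to 11.15, with a small overlap. The other 2 *Rarb* probes, both under the minimum, were not called. One had a difference of 0.10 (adjusted p = 0.817), and the other cleared background on 0 of 3 arrays of WT females and 3 of 22 of Ftx KO females, so no difference is read from it. *Rxrg*, the RXR gene known from early cones and other retinal neurons, fell by 0.73 with an SE of 0.19 at probe A_51_P513311 (adjusted p = 0.00671). Its WT range, 11.15 to 11.51, did not overlap the Ftx KO range of 9.90 to 11.08, and the other *Rxrg* probe was at -0.53 (adjusted p = 0.0603).

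Among 10 coregulator probes 1 was called, *Ncoa2*, a receptor coactivator, which rose by 0.45 with an SE of 0.10 (limma, adjusted p = 0.0021). In the fit over all probes 1 *Nrip1* probe, for a ligand-dependent corepressor, rose by 0.87 (adjusted p = 0.0022) while the other was at 0.09. A probe for the coactivator *Ncoa3* was at -0.56 in that fit (adjusted p = 0.0399) and another at 0.09.

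Genes that retinoic acid induces in embryos had 1 of 9 probes called, the *Rarb* probe already given, with a median of 0.00. The target genes *Foxc1* and *Dkk2* of the mesenchyme around the eye were under the minimum. In the fit over all probes *Foxc1* rose by 2.23 (adjusted p = 0.0106) and *Dkk2* by 2.96 (adjusted p = 0.0291). Mean log2 levels of *Foxc1* and *Dkk2* were 6.17 and 5.13 in WT females, under the 7.25 and 6.88 of WT males. Ftx KO males were at 7.24 and 7.01, near the WT males. These genes also mark that mesenchyme, and its other markers moved as described next.

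**Figure D4:**
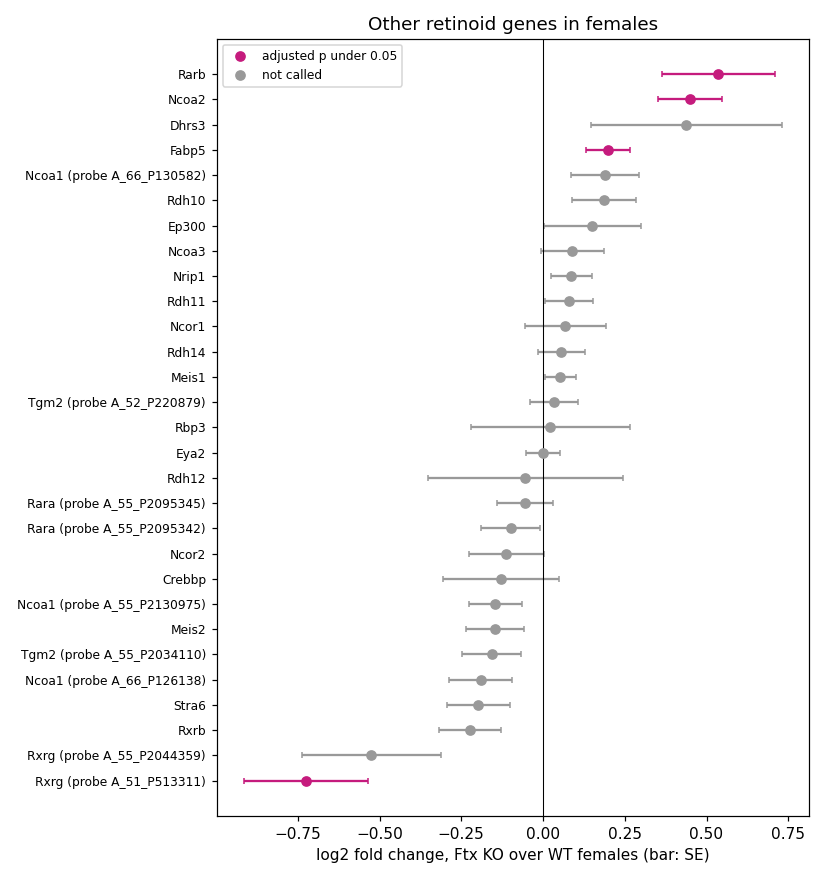
Log2 difference between Ftx KO and WT females for 29 probes of other pathway genes above the minimum, 1 point per probe ordered by size, with bars of 1 SE from limma and called probes in colour. *Rarb*, *Ncoa2* and *Fabp5* were called higher and 1 *Rxrg* probe lower.

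Markers of other tissues differed between the groups as well. The summed signal of 10 mesenchyme genes was 4063 to 5836 in WT females and 6075 to 50530, with a median of 13430, in Ftx KO females. Their 1 probe above the minimum was called higher, and 7 of 11 probes were in the fit over all probes. *Twist1* and *Postn* were not well above background on any WT female array. *Col1a2* gave the largest part of the sum, with signals of 3100 to 3755 in WT and 3896 to 24630 in Ftx KO females. *Pdgfra* lay the other way, with mean log2 levels of 8.69 in WT and 8.45 in Ftx KO females. Pigment epithelium genes summed to 6709 to 9775 in WT females and to 4605 to 40980, with a median of 19880, in Ftx KO females, and 2 of 6 probes were called higher. The sum over 10 lens genes was 1169000 to 1258000 in WT and 886700 to 1154000 in Ftx KO females, which did not overlap, and 11 of 13 lens probes were called lower.

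In males no probe of any of these lists was called. Pigment sums were 11070 to 15870 in WT and 6780 to 10220 in Ftx KO males, lower in Ftx KO, and lens sums overlapped at 1178000 to 1209000 and 1134000 to 1204000. Erythroid sums, over 8 genes such as the globins, were 206300 to 261500 in WT and 304200 to 630700 in Ftx KO males, without overlap, and 7 of 7 erythroid probes above the minimum had an unadjusted p under 0.05, though none was called. In females the erythroid sums were 233000 to 266600 in WT and 211000 to 383500 in Ftx KO eyes, and 3 of 7 probes were called higher. The male values of *Aldh1a3* thus stand beside a lower pigment sum and a higher erythroid sum, whose part in them was not tested. Endothelium sums were 6408 to 6458 in WT and 5600 to 8336 in Ftx KO females, overlapping, with 1 of 3 probes called lower.

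Retinal position markers were read beside the ALDH1A genes, which are themselves regional. Dorsal genes summed to 23980 to 27840 in WT females and 24860 to 31070 in Ftx KO females, overlapping. Of 6 dorsal probes *Efnb2* was called higher by 0.56 (limma, adjusted p = 0.000103), against -0.50 at its other probe in the fit over all probes (adjusted p = 0.05), and *Efnb1* lower, at -0.31 (adjusted p = 0.0137). The transcription factors *Tbx2*, *Tbx3* and *Tbx5* and the signal *Bmp4* were not called. Ventral genes summed to 22630 to 30470 in WT females and 23240 to 56740, with a median of 39740, in Ftx KO females. All 3 ventral probes above the minimum were called, *Ephb3* higher by 0.97 with an SE of 0.27 (adjusted p = 0.00894), *Vax2* higher by 0.36 with an SE of 0.12 (adjusted p = 0.0233) and *Ephb2* lower, at -0.56 (adjusted p = 0.00164). In males the ventral sum was 21080 to 26500 in WT and 28390 to 32330 in Ftx KO eyes, without overlap. Nearly all of this sum is the signal of *Ephb3* and *Vax2*, and it does not describe the other genes of the list. The mean log2 level of *Ephb2* was 9.15 in WT and 9.12 in Ftx KO males, and that of *Vax1* was 8.02 and 7.58 at one probe and 7.73 and 7.69 at the other.

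Within the 11 Ftx KO female eyes, members were set against the log2 sums of mesenchyme, pigment epithelium and lens markers, 24 relations in all. Only 1 passed adjustment, *Aldh1a3* with the pigment sum, at Pearson's r = 0.83 (permutation p = 0.0019, or 0.0456 after adjustment) and Spearman's rho = 0.86 (permutation p = 0.00145). Without eyes 7 and 8, the farthest from the median pigment sum, r was 0.79, and with slide means removed it was 0.75 (permutation within slides, p = 0.0192). *Aldh1a3* with the mesenchyme sum had r = 0.75, with a permutation p of 0.00737 that became 0.0554 after adjustment, and rho = 0.64 (permutation p = 0.04), with r = 0.58 without eyes 1 and 5 and 0.70 with slide means removed (permutation within slides, p = 0.0619). *Rbp4* with the lens sum had r = 0.75, with a permutation p of 0.00924 that became 0.0554 after adjustment, and rho = 0.68 (permutation p = 0.0246), with r = 0.77 without eyes 1 and 8 and 0.76 with slide means removed (permutation within slides, p = 0.0333).

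The relation of *Aldh1a2* with the mesenchyme sum, which did not pass either, had r = 0.74, with a permutation p of 0.00832 (0.0554 after adjustment), and rho = 0.72 (permutation p = 0.0157), and it rested on the 2 farthest eyes, since r was 0.42 without eyes 1 and 5. With slide means removed r was 0.84 (permutation within slides, p = 0.00667). *Cyp26b1* had r = 0.63 with the same sum (permutation p = 0.0359, or 0.142 after adjustment) and a rho of 0.67 (permutation p = 0.0274), falling to 0.27 without those eyes, and 0.72 with slide means removed (permutation within slides, p = 0.0359). *Cyp26a1* with the pigment sum had r = 0.70 (permutation p = 0.0177, or 0.085 after adjustment) and rho = 0.78 (permutation p = 0.00649), with r = 0.68 without eyes 7 and 8 and 0.57 with slide means removed (permutation within slides, p = 0.108). *Cyp26a1* with the mesenchyme sum had r = 0.63 (permutation p = 0.0414, or 0.142 after adjustment) and a rho of 0.60 (permutation p = 0.056), with r = 0.53 without eyes 1 and 5 and 0.50 with slide means removed (permutation within slides, p = 0.185). The part that these tissues have in the group differences of the members was not tested.

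**Figure D5:**
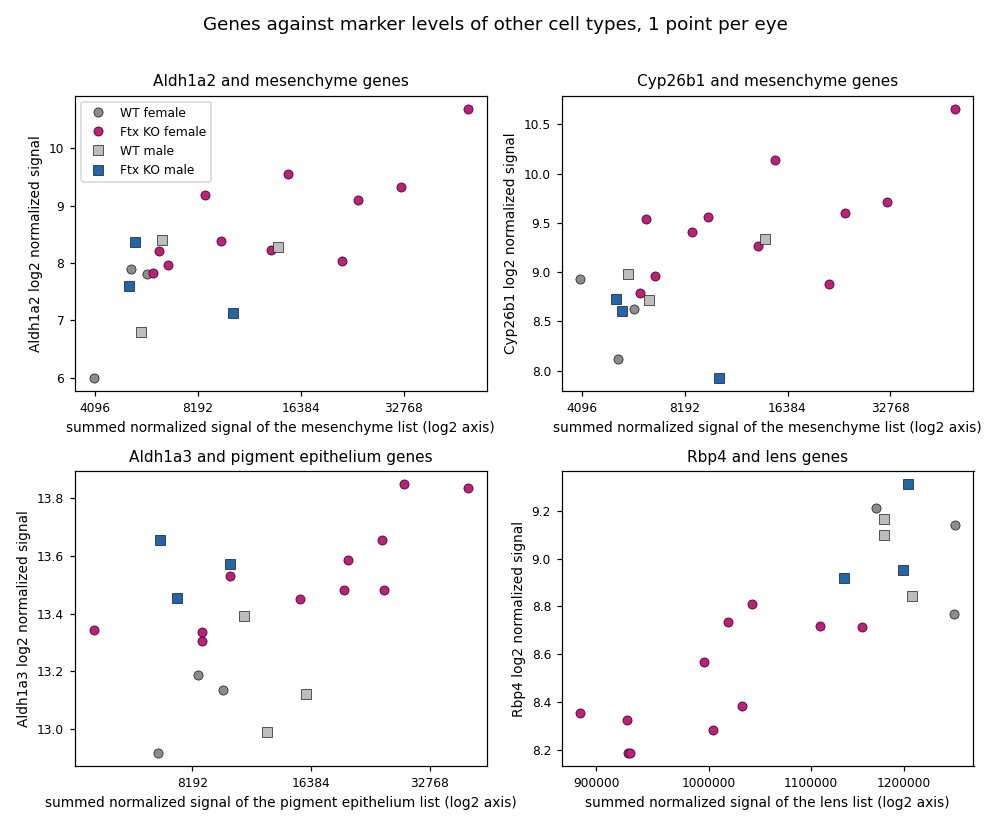
Log2 level of 4 members against the summed signal of a marker list, 1 point per eye, with the 11 Ftx KO female eyes and the other groups in separate symbols. Within Ftx KO females *Aldh1a3* was higher in eyes with a higher pigment sum (r = 0.83), and the relations in the other panels did not pass adjustment over 24 relations.

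The genes whose levels moved most like each member were found from deviations from the group means over the 20 eyes, as a description. *Aldh1a3* was nearest to *Zadh2*, *Aldh2* and *Zfp286*, with r of 0.85, 0.84 and 0.83. *Rbp4* was nearest to *Chga*, *Scrt2* and *Elavl2*, each at 0.88, all genes known from neurons or neuroendocrine cells. *Cyp26b1* was nearest to *Cldn5*, *Robo4* and *Mmrn2*, at 0.88, 0.84 and 0.83, which are known from blood vessel endothelium.

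*Aldh1a2* was nearest to *Crym*, *Heyl* and *Ralb*, at 0.93, 0.89 and 0.88, and *Aldh1a1* to *Rcn1*, *Wfdc1* and *Fkbp14*, at 0.84, 0.83 and 0.77. *Cyp26a1* was nearest to *Thap3*, *Btf3* and *Txndc15*, at 0.90, 0.89 and 0.88. The carriers differed from each other, *Crabp1* being nearest to *Mtx2* and *Tmem176b*, at 0.86 and 0.83, and *Crabp2* to *Rpl10*, *Rps9* and *Ptpn11*, at 0.93, 0.88 and 0.88. No member was among the nearest genes of another, though only genes above the minimum were candidates, and *Cyp26c1* was left out. Each eye gives all its genes from 1 RNA sample and the same slides, so these likenesses include whatever the eyes or slides share.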

How the data were processed

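The 31 arrays were Agilent 8x60K 1-colour mouse arrays scanned as Cy3 with Agilent Feature Extraction 11.0.1.1, per the file headers. The deposited intensity of each spot is the processed signal, already background-corrected. The authors normalized it with qspline in R, which was run again here on the spots not flagged as outliers (100 samples, 5 iterations, least offset 5). The series' value table, also deposited, was found to hold the scanner signal to within 0.498% and is used as an alternative. Columns left out: 0. Control spots were removed, spots of a probe averaged, and both arrays of an Ftx KO female eye averaged on the log2 scale. Limma 3.58.1 in R 4.3.3 (jsonlite 2.0.0, with version 1.17.8 of data.table) was fitted over 20 eyes with a mean-dependent variance and Benjamini-Hochberg adjustment, without covariates, on probes whose WT female mean signal exceeded 500. The study names a signal of 500 as its limit, and applying it to the WT female mean was a choice made here. The median SE was 0.0931 in females and 0.117 in males, and precision is limited by how many eyes there are. The step was tested on simulated data. Correlations used 100000 permutations with seed 11, two-sided. The files give probe positions on mm9, and positions within exons were not analysed here.

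Named genes were all members, pathway genes with a called probe, and for each member the 3 most correlated probes of other genes. Some genes that this rule names are not reported here. Genes named in other roles (*Stra6*, *Rdh10*, *Dhrs3*) were chosen after their values were seen. The members and lists were chosen with earlier results of these data known. Ftx probes are named by an older symbol in the files. Eyes of different groups share replicate numbers, and the correlation of their deviations ran from -0.60 to 0.30, so the numbers do not pair the eyes. Alternatives were other filters, backgrounds and scalings, slide, scan and replicate blocks, single slides, the methods' t-test and the study's fold criteria, and leaving out eyes.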

Additional observations from a re-analysis of the deposited data

Results flagged for a closer look

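The *Cyp26b1* difference between Ftx KO and WT eyes pointed up in every female eye against the WT female mean and down in every male eye against the WT male mean. The WT female mean was itself 0.45 below the WT male mean, with an SE of 0.37 (limma over all probes, adjusted p = 0.642). The female change exceeded the male change by 1.53 on the log2 scale, with an SE of 0.48. It had an unadjusted p of 0.00453 in limma and did not pass after adjustment (adjusted p = 0.302). Over 25 alternatives it passed in 1, with the Ftx KO female eyes of slide 3 only (adjusted p = 0.0478).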

How the results depend on the processing

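Over 506 recomputed differences of the 9 members in females or males, 481 kept their side of the threshold, 18 lost a call, 7 gained one and none reversed after being called. Of the 481, 37 belonged to members without a call and changed sign. The 2 called members in females became 1 with the series table, with the Ftx KO female eyes of slide 2 only, and with the methods' t-test at the threshold of the study or with Benjamini-Hochberg. They became 4 with probes well above background on every array of a group (*Aldh1a2*, *Aldh1a3*, *Cyp26b1*, *Rbp4*), and 0 with slide or scan as a block. That background filter tested every member but *Cyp26c1*, and 8701 of all probes it kept were called. Leaving out each eye gave 1 to 2 in females, 1 without WT female 2. In males the 0 called members became 1, *Aldh1a3*, with the t-test at the threshold of the study and with its fold criteria, and 0 to 0 when eyes were left out. For the difference between the sexes 0 became 1, *Rbp4*, with the female eyes of slide 3 only and with the fold criteria, and *Cyp26b1*, under the minimum, also passed with slide 3 only (1.42, adjusted p = 0.0478). *Rbp4* was not called with the t-test after adjustment (adjusted p = 0.134). Of the other pathway probes, 5 called became 3 with the series table, 11 over all probes, 11 with the background filter, 0 with either block, 2 with the t-test after adjustment, and 4 to 6 when eyes were left out. Over all tested probes, 4925 calls in females became 11 with the slide and 13 with the scan as a block, 8809 over all probes, 8701 with the background filter and 2744 with the series table. Both blocks tie WT to Ftx KO females only through Ftx KO males, with 1 eye on slide 1. The lost calls therefore do not separate slide or scan from genotype. Their cause was not tested. The replicate block, which pairs eyes by number only, gave 2 members in females, 0 in males, 4 other pathway probes and 3233 calls in females. The fit without Ftx KO female 1 was chosen after seeing the data. Signals near background limit *Cyp26c1*.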
